A study of Cannabis sativa with 10 samples.

Results

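Salicylate is the plant hormone of defence against biotrophic pathogens. In Arabidopsis its synthesis is switched on by transcription factors that include SARD1 and CBP60g, and it is sensed by NPR1 and related proteins, which act with TGA factors to turn on pathogenesis-related (PR) genes. NIMIN proteins bind NPR1 and modulate its output, and methyltransferases turn salicylate into volatile methyl salicylate. Work in Arabidopsis and other species places ethylene and jasmonate in cross-talk with this pathway, and thaumatin-like and other PR proteins also occur in flowers that carry no infection.

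The 6 genes described here carry product descriptions from this pathway and its outputs, out of 35192 genes in the table. They are SAR DEFICIENT 1 (LOC115708927), NIM1-INTERACTING 2 (LOC115712507), a salicylate and benzoate carboxyl methyltransferase (LOC115711939), a PR1-like gene (LOC133031825), thaumatin-like protein 1b (LOC115708688) and glutaredoxin-C9 (LOC115698640). The rule is a fixed list of names, drawn up with results in view, and it names no contrast. The values taken as used are those of week 1: the genes were higher in male than in female apices, and the methyltransferase was also lower in female week 1 than in vegetative apices. For these 6 genes week 1 values are therefore given as a description with no test, and their tests are those of week 3. The spread used in those tests is shared over all groups, so week 1 libraries also enter their SE and p-values. Other genes of the pathway are tested at both weeks.

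The 10 libraries were made from messenger RNA of Cannabis sativa shoot tips of a single genotype, A3. There were 2 libraries in each of 5 groups: vegetative apices, female apices at week 1 and at week 3 of flowering, and male apices at week 1 and at week 3. Male flowers were induced with a treatment labelled STS, read here as silver thiosulfate, which blocks ethylene perception. Every male library and no other carries this label. Each difference of male from female or from vegetative apices is therefore also one between treated and untreated plants. Levels are FPKM, fragment counts scaled to gene length and library size. Differences are in log2(FPKM + 1), a scale on which the changes of low genes come out too small. The labels do not say that the 2 libraries of a group came from separate plants, so the p-values speak only of the spread among these libraries, which may be technical.

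The libraries held 603600 to 764700 FPKM in total, and their depth in reads is unknown. The replicates correlated across genes at Pearson r from 0.98 to 0.992, where genes are not independent replicates. The male week 1 pair differed most, with 338 genes more than 1 log2 unit apart, and the female week 3 pair least, with 58. Markers of stamen and tapetum, 6 genes in all, summed to 327 to 354 FPKM in male week 3 libraries and to 0.259 to 3.82 FPKM in every other library. Their male week 1 sum was 2.37 to 3.82 FPKM, with DYT1 and MALE STERILITY 1 at 0 in both libraries, against 0.998 to 1.19 FPKM in female week 1. Shoot meristem markers, 12 genes, were found in every group, at summed levels of 36.4 to 85.8 FPKM, although WUSCHEL was at 0 in both vegetative libraries. This list was matched by description and also holds genes described only as CLAVATA3/ESR (CLE)-related, which need not mark the meristem.

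The genes lie on 4 chromosomes of assembly ASM2916894v1. SAR DEFICIENT 1 (chr3:35153608-35159921, plus strand) was 52.8% identical in protein to Arabidopsis SARD1. NIM1-INTERACTING 2 (chr4:2160633-2160995, plus strand) was 37.1% identical to Arabidopsis NIMIN2, and its 363-base span makes it the shortest of the 6. The methyltransferase (chr4:77480803-77485285, minus strand) was 43.6% identical to BSMT1. The PR1-like gene (chrX:10856332-10857062, plus strand) was 62.9% identical to AT4G33720, an Arabidopsis gene other than PR1 itself. Thaumatin-like 1b (chr3:16474788-16476651, plus strand) was 52.1% identical to PR-5, and glutaredoxin-C9 (chr8:38685481-38686276, plus strand) 60.95% identical to ROXY19, a glutaredoxin that binds TGA factors. Coordinates, descriptions and identities are those of the authors' table.

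**Figure D1:**
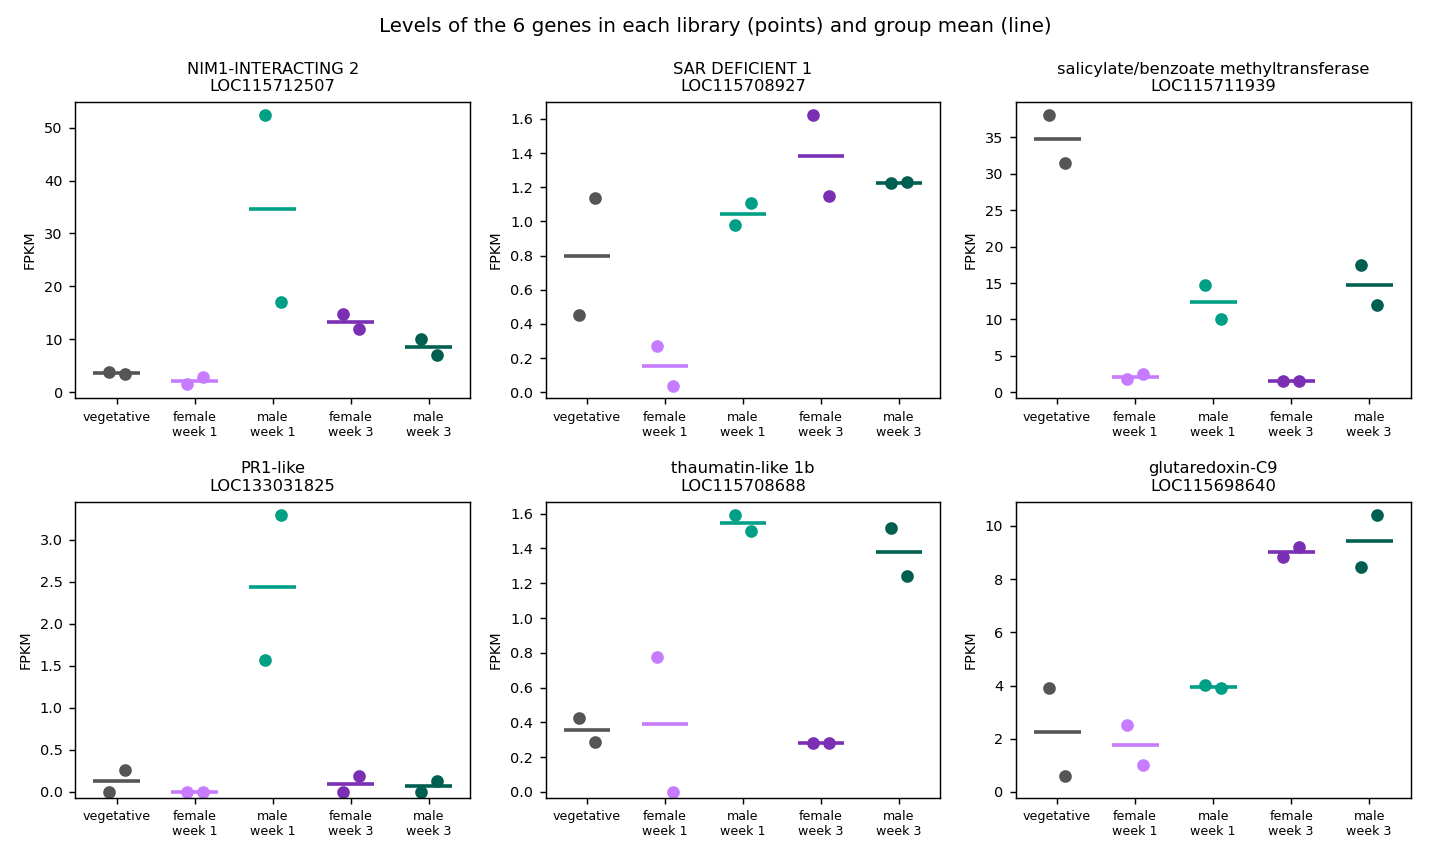
Level in FPKM (vertical axis, from 0, on a scale of its own for each gene) of the 6 genes in each of the 10 libraries, with points for libraries and a line for the mean of each group of 2. In all 6 panels both male week 1 points lie above both female week 1 points, while at week 3 this holds for the methyltransferase and thaumatin-like 1b.

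At week 1 all 6 genes were higher in both male than in both female libraries. The differences ran from 0.83 log2 units for SAR DEFICIENT 1 to 3.33 for NIM1-INTERACTING 2. Among all 18309 genes tested, 16.9% had both male libraries above both female libraries, and since the genes were chosen on this contrast nothing is read from their count. In bulk tissue, fewer cells of a type and less RNA per cell cannot be told apart, here or in any value that follows.

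SAR DEFICIENT 1, which in Arabidopsis activates the salicylate synthesis gene, was a low gene in every group. It was at 0.455 and 1.14 FPKM in vegetative, 0.977 and 1.11 in male week 1, and 0.268 and 0.0371 in female week 1 libraries. At week 3 it was at 1.62 and 1.15 FPKM in female and 1.22 and 1.23 in male libraries. Female week 1 was the lowest group and did not overlap with any other, whereas the vegetative libraries spanned the male week 1 values. Its low values were whole multiples of what 1 fragment is worth, and the estimates came to 7 and 1 fragments in female week 1 and 25 in each male week 1 library. The 2 week 3 groups overlapped and their difference did not pass the test, at -0.09 ± 0.21 (SE, 95% interval -0.56 to 0.37; limma, adjusted p = 0.72). Neither week 3 group passed the test against vegetative apices, at 0.43 ± 0.21 in female (limma, adjusted p = 0.138) and 0.34 ± 0.21 in male apices (limma, adjusted p = 0.183), but both passed without vegetative replicate 2 (limma, adjusted p = 0.0438 and 0.0377).

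NIM1-INTERACTING 2, whose Arabidopsis counterpart binds NPR1, had the widest range of the 6. It was at 3.79 and 3.44 FPKM in vegetative, 52.3 and 17.1 in male week 1, and 1.47 and 2.85 in female week 1 libraries. Its male week 1 mean was 34.7 ± 24.9 FPKM (SD, n = 2), 16.04-fold above the female mean of 2.16 ± 0.979, and the 2 male libraries differed more than those of any other group. At week 3 it stood at 14.8 and 11.9 FPKM in female and 10.01 and 6.98 in male libraries. The groups ranked male week 1, female week 3, male week 3, vegetative and female week 1, and no neighbours in this order overlapped.

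At week 3 the order of the sexes for NIM1-INTERACTING 2 was the opposite of that at week 1, with both female libraries above both male libraries. The male minus female difference at week 3 was -0.61 ± 0.42 (SE, 95% interval -1.55 to 0.34) and did not pass the test (limma, adjusted p = 0.238). A fit on the 2 week 3 groups alone did call it (limma, adjusted p = 0.023). Female week 3 apices were above vegetative ones by 1.63 ± 0.42 (limma, adjusted p = 0.0135). That call was lost without vegetative replicate 1, vegetative replicate 2 or female week 3 replicate 1 (limma, adjusted p = 0.052, 0.0733 and 0.0856), while the difference stayed between 1.48 and 1.78. Male week 3 apices were above vegetative ones by 1.02 ± 0.42, which did not pass (limma, adjusted p = 0.057) but was called with a pseudocount of 0.1 (limma, adjusted p = 0.0482) and in a fit on those 2 groups alone (limma, adjusted p = 0.00218).

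The methyltransferase, which in Arabidopsis methylates salicylate and benzoate, was highest in vegetative apices, at 38.1 and 31.5 FPKM. Female libraries were low at both weeks, at 1.82 and 2.48 FPKM at week 1 and 1.61 and 1.52 at week 3. Male libraries held an intermediate level, at 14.7 and 10.1 FPKM at week 1 and 17.5 and 11.99 at week 3. The 2 male groups overlapped each other and no other group did, so the order was vegetative, male at either week, female week 1 and female week 3.

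At week 3 the methyltransferase was higher in male than in female apices by 2.60 ± 0.22 (SE, 95% interval 2.10 to 3.09; limma, adjusted p = 4.55e-06), with means of 14.7 ± 3.86 and 1.56 ± 0.0636 FPKM (SD, n = 2 each), a 9.44-fold ratio. It was lower than in vegetative apices (34.8 ± 4.68 FPKM) in female apices, at -3.80 ± 0.22 (limma, adjusted p = 2.35e-06). In male apices it was at -1.20 ± 0.22 (limma, adjusted p = 0.000901). These 3 calls held under every alternative tried. The comparisons with vegetative apices share the 2 vegetative libraries. The same libraries enter the week 1 values taken as used to choose this gene. Its tests against vegetative apices are therefore not independent of its choice. The authors' deposited table gives adjusted p = 3.16e-22 for this gene between the week 3 groups, with a log2 fold change of -3.29 for female over male.

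The PR1-like gene was close to the floor of the assay outside male week 1. PR1 proteins are secreted, and the gene family includes the classical marker of the salicylate response. Both male week 1 libraries held it, at 1.58 and 3.29 FPKM, and both female week 1 libraries listed it at 0. It was at 0 and 0.264 FPKM in vegetative, 0 and 0.131 in male week 3 and 0 and 0.193 in female week 3 libraries. In estimated fragments this is 13 and 24 in male week 1 and 0 to 2 in each of the other 8 libraries. None of its 3 week 3 differences passed the test, and each lay between -0.08 and -0.04 with a SE of 0.24 (limma, adjusted p from 0.786 to 0.928). At 0 to 2 fragments a library, a difference among these groups was not detectable at this depth.

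Thaumatin-like 1b, of the PR-5 family of proteins similar to the sweet protein thaumatin, was low but higher in male apices at both weeks. It was at 0.423 and 0.288 FPKM in vegetative, 1.59 and 1.501 in male week 1, and 0.777 and 0 in female week 1 libraries. At week 3 it was at 0.282 and 0.280 FPKM in female and 1.52 and 1.24 in male libraries. The male libraries of either week overlapped each other and lay above all 6 other libraries. Behind these values stood an estimated 13 to 18 fragments in each male library and 0 to 9 in each other library.

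At week 3 thaumatin-like 1b was higher in male than in female apices by 0.89 ± 0.24 (SE, 95% interval 0.36 to 1.42; limma, adjusted p = 0.00838), a 4.91-fold ratio of the means. The gene passed the filter on low values only through male week 1 and male week 3, each of which had a mean over 1 FPKM. The call was lost with a pseudocount of 0.1 (limma, adjusted p = 0.0546) and without male week 3 replicate 1 (limma, adjusted p = 0.054). Against vegetative apices the male week 3 difference was 0.81 ± 0.24 (limma, adjusted p = 0.0129), lost with a pseudocount of 0.1 (limma, adjusted p = 0.0824), without vegetative replicate 2 (limma, adjusted p = 0.0711) and without male week 3 replicate 1 (limma, adjusted p = 0.072). The female week 3 difference from vegetative apices was -0.08 ± 0.24 and did not pass (limma, adjusted p = 0.845). In these comparisons the authors' deposited table gives a log2 fold change of exactly 0 for both the PR1-like and the thaumatin-like 1b gene. Such a value may stand for a gene that was not tested, so it is not read as no change.

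Glutaredoxin-C9 was higher in the week 3 libraries of both sexes than in any vegetative or week 1 library. Its closest Arabidopsis gene, ROXY19, encodes a small redox protein that works with TGA factors and is induced by salicylate. It was at 3.92 and 0.588 FPKM in vegetative, 4.002 and 3.92 in male week 1, and 2.53 and 1.02 in female week 1 libraries. At week 3 it was at 8.82 and 9.19 FPKM in female and 8.46 and 10.4 in male apices. The 2 week 3 groups overlapped, with a difference of 0.06 ± 0.44 (SE, 95% interval -0.93 to 1.04; limma, adjusted p = 0.922). Against vegetative apices it was higher by 1.84 ± 0.44 in female (limma, adjusted p = 0.00921) and by 1.89 ± 0.44 in male week 3 apices (limma, adjusted p = 0.00378). These sizes rest on 2 vegetative libraries that differed from 3.92 to 0.588 FPKM. Without vegetative replicate 1 the differences were 2.65 in female and 2.71 in male apices, and without vegetative replicate 2 they were 1.02 and 1.08, called in all 4 cases. The female call was lost without female week 3 replicate 2 (limma, adjusted p = 0.0539). For the female comparison the authors' deposited table gives adjusted p = 0.161, and for the male one adjusted p = 0.0022.

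**Figure D2:**
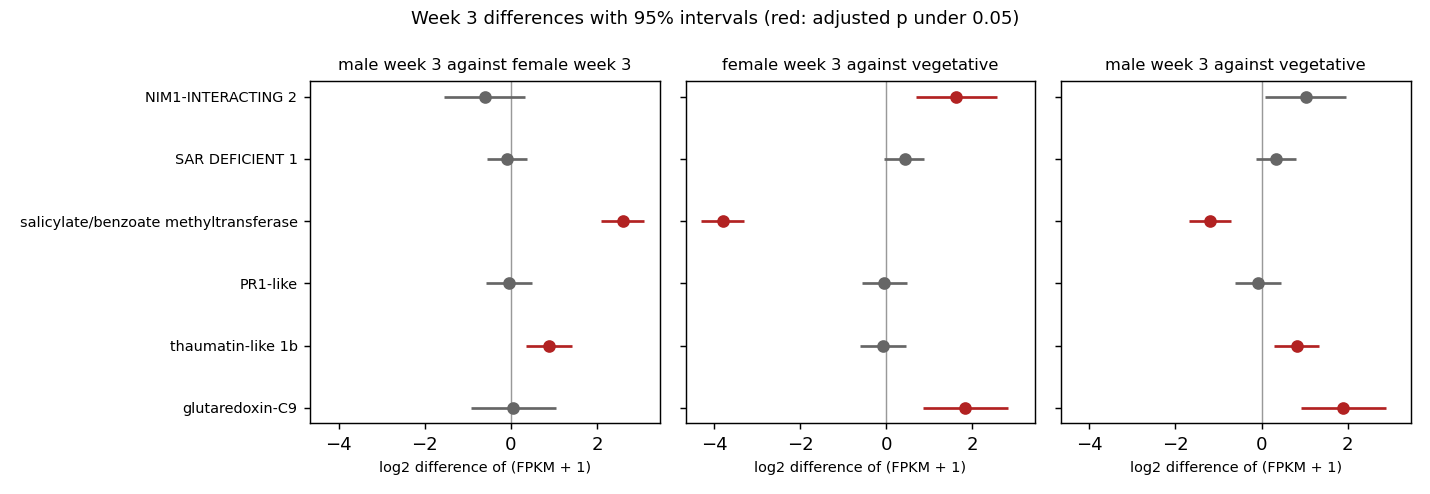
Difference in log2(FPKM + 1) for each of the 6 genes (horizontal axis) in the 3 comparisons among the week 3 and vegetative groups. Points give the estimate and bars its 95% interval, red where the adjusted p was under 0.05. The spread behind the bars is shared over all 10 libraries, those of week 1 included. The methyltransferase is red in all 3 panels, at 2.60, -3.80 and -1.20.

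In counts over the 6 genes, 2 were called higher in male than in female apices at week 3 and none lower, where 31.7% of all genes tested were called higher and 28.6% lower. Both male libraries lay above both female libraries at week 3 for those 2 genes, and for 41% of all genes. Against vegetative apices, female week 3 had 2 of the 6 higher and 1 lower, where 19.8% and 16.8% of all genes were called. Male week 3 had 2 higher and 1 lower, where 34.8% and 27.9% were called. With 6 genes and so large a background, these counts say nothing of the 6 genes as a set. All 6 genes passed the filter of a mean of 1 FPKM in some group, the PR1-like gene only through male week 1 and thaumatin-like 1b only through the male groups.

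Relative to vegetative apices, NIM1-INTERACTING 2 was 0.58 log2 units lower in female week 1 and 2.75 higher in male week 1 apices, at -0.58 and 2.75. SAR DEFICIENT 1 was at -0.62 in female and 0.21 in male, and glutaredoxin-C9 at -0.06 and 0.83. For both of these genes the male week 1 libraries overlapped the vegetative ones, and single libraries set the values. Leaving out 1 replicate moved SAR DEFICIENT 1 in male apices between -0.07 and 0.49, and glutaredoxin-C9 between -0.88 and 0.75 in female and between 0.01 and 1.64 in male apices. The methyltransferase was below the vegetative level in both, at -3.51 in female and -1.43 in male apices. For the PR1-like gene the values were -0.17 and 1.56, and for thaumatin-like 1b -0.02 and 0.91. These are descriptions without a test and share their vegetative libraries.

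Both PR genes belong to larger families. Of 19 genes described as PR1 or PR1-like, 6 were at 0 in all libraries and 6 reached a mean of 1 FPKM in some group. The described PR1-like gene is 1 of 5 between 10740774 and 10871821 on chromosome X. A neighbour there, LOC133032773, was at 0.844 and 0.425 FPKM in male week 1, 0.604 and 0.711 in male week 3, and 0 in all 4 female libraries. LOC115705814, on an unplaced sequence and with the same 62.9% identity to AT4G33720, was at 0.388 and 0.293 FPKM in male week 1 and 0 in both female week 1 libraries. A further neighbour on chromosome X, LOC115702390, went the other way at week 1. It was at 0.364 and 0.137 FPKM in male and 1.06 and 0.6885 in female week 1 libraries. Over all 19, both male libraries were above both female ones for 5 at week 1 and 7 at week 3. The reverse held for 2 at each week. Among all genes tested these shares were 16.9% and 41%, and for the reverse 14.3% and 41.9%. The 19 were counted without the filter of 1 FPKM that the genes tested passed. Reads of similar copies may be split between them, so the level of a single PR1 gene is uncertain.

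Other PR1 genes took a different course. LOC115706309, another member of the cluster on chromosome X, was at 4.83 and 2.37 FPKM in vegetative, 4.76 and 5.27 in male week 1, and 3.58 and 3.94 in female week 1 libraries. At week 3 it was at 0.317 and 0.0787 FPKM in female and at 0.638 and 0.858 in male libraries. Both week 3 groups were below vegetative apices, by -1.90 ± 0.24 in female (limma, adjusted p = 0.000301) and -1.35 ± 0.24 in male (limma, adjusted p = 0.000804). LOC133033186, the PR1-like gene with the highest level, fell the same way, by -2.22 ± 0.25 in female week 3 (limma, adjusted p = 0.000142) and -1.53 ± 0.25 in male week 3 (limma, adjusted p = 0.000423).

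The thaumatin-like 1b description is shared by 5 genes, 4 of them between 16321244 and 16675388 on chromosome 3. In every library the gene described here was below 3 of the other 4. LOC115708958, also on chromosome 3, was at 79.9 and 61.4 FPKM in male week 1 and 55.2 and 70.8 in female week 1 libraries, which overlapped, and at 5.98 and 5.94 in male week 3 libraries. LOC115705776, the copy on chromosome 1, was at 433 and 400 FPKM in male week 3 against 8.18 and 4.42 in female week 3 libraries, a difference of 5.89 ± 0.25 (limma, adjusted p = 2.66e-08). The same male libraries held the stamen and tapetum markers at the high sums given above, and the part of these cells in this difference was not tested. Over all 27 thaumatin-like genes, both male libraries were above both female ones for 3 at week 1 and 9 at week 3, where 16.9% and 41% of all genes tested did so. The reverse held for 5 and 15, where 14.3% and 41.9% of all genes tested did so. These counts take in all 27 genes, of which 21 reached a mean of 1 FPKM in some group. The shares are only of genes that did.

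**Figure D3:**
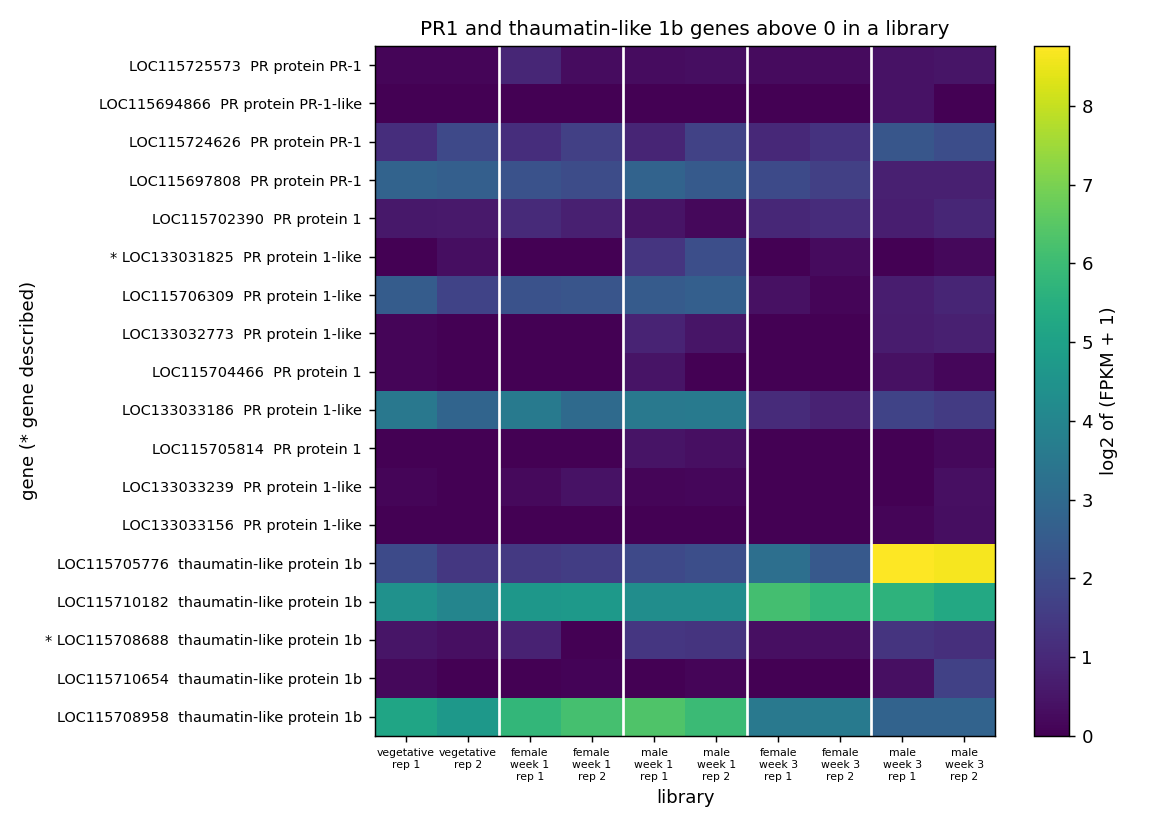
Level as log2(FPKM + 1) (colour scale) of the PR1 and thaumatin-like 1b genes above 0 in some library (rows) in each of the 10 libraries (columns), with the described genes marked by a star. The described PR1-like gene is brightest in the 2 male week 1 libraries, while LOC115706309 and LOC133033186 are bright in vegetative and all week 1 libraries.

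To set the 6 genes in their pathway, 125 genes were listed by 8 roles from product descriptions and Arabidopsis matches, and the other 119 were examined, 76 of which had levels high enough to test. At week 1, 5 of the 76 were called higher in male than in female apices and none lower, where 0.12% of all genes were called higher and 0.0164% lower. Their median difference was 0.08 against 0 over all genes tested, and 50 of the 76 were above 0. The list was written with week 1 results known, so this count is no independent evidence of direction.

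The 5 genes called at week 1 act in salicylate breakdown, transcription and PR output. DMR6-LIKE OXYGENASE 2 (LOC115715781), of the family that hydroxylates salicylate in Arabidopsis, was at 88.1 and 47.2 FPKM in male and 0.260 and 0.0504 in female libraries. DOWNY MILDEW RESISTANCE 6 (LOC115717114), of the same family, was at 38.1 and 38.8 against 7.38 and 5.95 FPKM. A pair of genes described as WRKY70, a factor of salicylate-dependent defence, were at 35.1 and 25.4 against 1.41 and 0.705 FPKM (LOC115707511) and at 11.6 and 12.03 against 4.48 and 2.22 FPKM (LOC115695993). A basic beta-1,3-glucanase (LOC115710100), of the PR-2 family, was at 2.69 and 3.97 against 0.673 and 0.218 FPKM, and was named after its values were seen. Their log2 differences were 5.83, 2.37, 3.93, 1.61 and 1.59 in this order (limma, adjusted p = 0.000185, 0.0203, 0.000185, 0.0486 and 0.0224).

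Genes that make or sense salicylate are given by their values, since a contrast with so few calls says little of genes not called. Isochorismate synthase (LOC115708663), the enzyme of the main route in Arabidopsis, was at 4.35 and 5.49 FPKM in male and 6.06 and 6.06 in female libraries (-0.26; limma, adjusted p = 0.895). The NPR1 gene LOC115697245 was at 14.5 and 15.9 against 13.5 and 13.4 FPKM (0.16; limma, adjusted p = 0.917), and the libraries of the NPR1 gene LOC115699715 overlapped, at 10.9 and 7.80 against 8.27 and 9.01 FPKM. EDS1 (LOC115711424), a lipase-like protein upstream of salicylate synthesis, was at 18.1 and 14.9 against 11.3 and 9.69 FPKM, which did not overlap but did not pass the test (0.61; limma, adjusted p = 0.233). None of the 7 synthesis genes and 7 TGA factors tested was called, against the shares of 0.12% and 0.0164% above.

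At week 3, 32 of the 76 genes were called lower in male than in female apices and 14 higher, where 28.6% of all genes were called lower and 31.7% higher. Their median difference was -0.47 against -0.02 over all genes tested. Markers of other tissues differed between the same libraries. CRABS CLAW, a carpel gene, was at 22.8 and 18.6 FPKM in female against 0.681 and 0.534 in male libraries, and the AGL11 gene LOC133031811, of the ovule, at 83.8 and 69.8 against 1.17 and 0.846. A further AGL11 gene (LOC115723650) was at 0 in all of them. The 6 carpel and ovule markers as a list summed to 93.1 to 114 FPKM in female and 256 to 288 in male libraries, where AGAMOUS, also a stamen gene, made up 254 to 286 of the male sum. The shoot meristem list, which takes in CLE-related genes by description, summed to 68.0 to 74.9 FPKM in female and 36.4 to 40.0 in male libraries. WUSCHEL went the other way, at 0.203 and 0.403 FPKM in female and 2.66 and 5.77 in male libraries. The sum is therefore no measure of the amount of meristem. The part of these tissues in the week 3 differences was not tested. Of 9 genes upstream of synthesis, 6 were lower in male apices and none higher. They included EDS1, at 3.72 and 4.15 against 11.5 and 11.3 FPKM (-1.33 ± 0.14; limma, adjusted p = 1.7e-05), and PAD4 (LOC115715124), its partner protein, at 1.17 and 1.79 against 3.64 and 2.68 FPKM (-0.75 ± 0.20; limma, adjusted p = 0.00797). One NPR1 gene, LOC115699715, was at 3.96 and 4.91 against 14.1 and 12.4 FPKM (-1.40 ± 0.17; limma, adjusted p = 5.72e-05), whereas LOC115697245 did not pass (-0.11 ± 0.12; limma, adjusted p = 0.436).

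The 3 tested WRKY factors of the list were all lower in male apices at week 3. WRKY46 (LOC115707429) was at 5.13 and 4.24 against 13.9 and 14.9 FPKM (-1.44 ± 0.13; limma, adjusted p = 8.01e-06). The WRKY70 genes LOC115707511 and LOC115695993, higher in male apices at week 1, were lower at week 3 by -0.84 and -0.79 (limma, adjusted p = 0.0141 and 0.0167). The largest falls were thaumatin-like 1 (LOC115717404), at 1.45 and 3.98 against 95.2 and 88.8 FPKM, and a further DMR6-LIKE OXYGENASE 2 gene (LOC115714075), at 3.60 and 2.69 against 20.9 and 16.6 FPKM. Their differences were -4.73 and -2.25 (limma, adjusted p = 3.93e-07 and 5.11e-06).

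Among the rises at week 3, several carry names of this pathway but are known from other roles. TGA9 (LOC115718511) and TGA10 (LOC115698870), which act in Arabidopsis anther development, were at 4.78 and 7.49 against 0.0706 and 0.0702 FPKM and at 19.7 and 19.6 against 1.76 and 2.46 FPKM. Glutaredoxin-C9-like (LOC115696745), a relative of the glutaredoxin-C9 described above whose closest Arabidopsis gene is the anther gene ROXY2, was at 10.1 and 9.15 against 0.0927 and 0.184 FPKM. Their log2 differences were 2.71, 2.74 and 3.22 (limma, adjusted p = 8.91e-07, 6.96e-07 and 5.39e-06). The stamen and tapetum markers stood at 327 to 354 FPKM in the same male libraries, and their part in these differences was not tested.

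**Figure D4:**
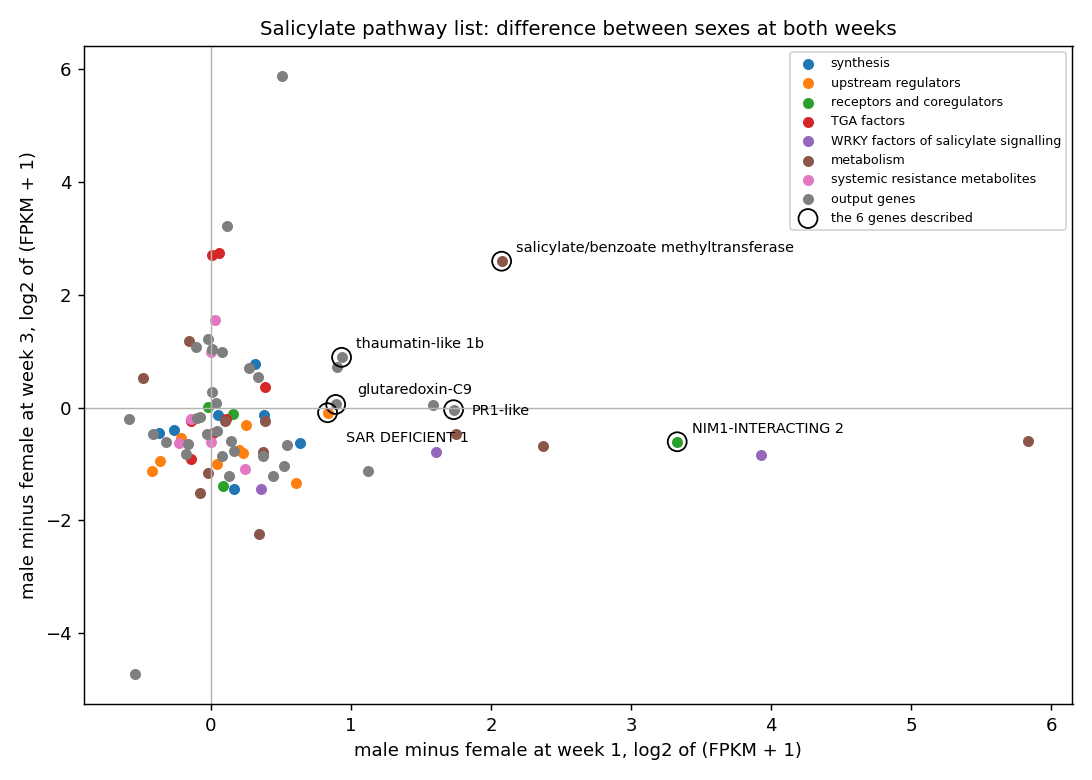
Male minus female difference in log2(FPKM + 1) at week 1 (horizontal axis) and week 3 (vertical axis) for each of the 82 tested genes of the salicylate list, coloured by role, with the 6 described genes circled. NIM1-INTERACTING 2 lies at 3.33 and -0.61, and the methyltransferase at 2.08 and 2.60.

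Compared with vegetative apices, the 76 list genes were called in both directions. In female week 1 apices 4 were higher and 6 lower, against 2.67% and 2.27% of all genes. In male week 1 apices 11 were higher and 3 lower, against 3.54% and 2.86%. In female week 3 apices 20 were higher and 17 lower, against 19.8% and 16.8% of all genes, and in male week 3 apices 19 were higher and 30 lower, against 34.8% and 27.9%. A phenylalanine ammonia-lyase gene (LOC115709383), of the entry step to phenylpropanoids, was lower in all 4 comparisons, at 23.8 and 22.8 FPKM in vegetative, 9.21 and 10.02 in male week 1, and 6.61 and 5.10 in female week 1 libraries. UDP-glycosyltransferase 76B1 (LOC115698777), which in Arabidopsis attaches glucose to salicylate, was at 4.19 and 3.82 FPKM in vegetative, 0.371 and 1.12 in male week 1, and 0.767 and 0.431 in female week 1 libraries. These 4 comparisons share the vegetative libraries, as do their values.

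For each of the 6 genes, the 3 most alike by Pearson correlation of log2(FPKM + 1) over the 10 libraries were taken among named genes tested. Genes with an empty, uncharacterized or hypothetical description were left out, so a gene more alike may be among those. The PR1-like gene was most like the beta-1,3-glucanase LOC115710100 (r = 0.938), an acidic endochitinase (LOC115705896, r = 0.898) and early light-induced protein 1 (LOC115722853, r = 0.896). The endochitinase, of another family of PR enzymes, was at 3.48 and 3.73 FPKM in male week 1 and 0.494 and 0.480 in female week 1 libraries. NIM1-INTERACTING 2 was most like bHLH162 (LOC115698778, r = 0.909), a pathogen-related protein (LOC115713227, r = 0.904) and TOM9-2 (LOC115715060, r = 0.898). SAR DEFICIENT 1 was most like CHROMATIN REMODELING 19 (LOC115722240, r = 0.948), IOS1 (LOC115704587, r = 0.898) and a purple acid phosphatase (LOC115704755, r = 0.879). A high r does not mean changes of like size. CHROMATIN REMODELING 19 stayed between 22.5 and 27.2 FPKM in all libraries, and TOM9-2 between 44.8 and 67.8.

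The methyltransferase was most like PHD finger-like domain-containing protein 5A (LOC115721425, r = 0.933), calreticulin (LOC115718493, r = 0.911) and a copper chaperone of superoxide dismutase (LOC115716401, r = 0.909). Thaumatin-like 1b had the weakest likeness, led by a SOBER1-like carboxylesterase (LOC115707378, r = 0.867), ethylene-response factor C3 (LOC115718716, r = 0.841) and FAHD1 (LOC115722236, r = 0.84). The carboxylesterase was nearly flat, between 29.0 and 33.7 FPKM in all libraries. Ethylene-response factor C3 was at 0.894 and 0.947 FPKM in male week 1, 1.93 and 1.49 in male week 3, and at most 0.288 in the other libraries. Glutaredoxin-C9 was most like EZA1-like histone methyltransferase (LOC133032816, r = 0.926), MEI2-like 1 (LOC115705670, r = 0.916) and VPS28 (LOC115706883, r = 0.909). These correlations describe 10 points that share 5 groups and carry no test.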

How the data were processed

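Levels came from 1 table of all genes deposited by the authors, whose values per library carry no unit name. The authors' values were taken to be FPKM, made before deposit from fragment counts divided by gene length and library size, a reading from their size and steps, and cannot be told from RPKM. Per the file headers the table also holds the authors' log2 fold changes, their p-value and adjusted p-value, and percent identity to an Arabidopsis protein. In the sources used here the aligner and counting tool are not given, and the depth in reads is unknown. After 2 emptied lines, 35192 genes remained, of which 34658 matched the reference symbols of the same assembly.

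The 18309 genes whose mean reached 1 FPKM in some group were tested as log2(FPKM + 1) with limma (version 3.58.1, under R 4.3.3). The model had a mean for each group over the 10 libraries, with trend and robust estimation, 5 residual degrees of freedom and a prior of 4.63 (median). Tests were 2-sided, with Benjamini-Hochberg adjustment over all genes and a threshold of 0.05. The fitting was tested on simulated data. Alternatives were the pseudocount, the filter, fits on 2 groups, a replicate block, rescaling, other limma settings and each replicate left out.

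The relative depth of each library was estimated from low values (0.001 to 0.4 FPKM) over all genes. Fragment estimates divide the depth-scaled values of a gene by the step that 1 fragment is worth. They had to lie within 0.1 of a whole number and go up to 60 fragments. These estimates were added after the values were seen. Named genes were the 6 genes, up to 4 called list genes of each direction per comparison, the 3 genes most alike, and relatives by description; the text gives those that matter. A few further list genes named at week 1 and week 3 (EDS1, PAD4, the NPR1 genes, WRKY46, isochorismate synthase), the named PR1 relatives and the glucanase were chosen after their values were seen. The 6 genes and the lists were chosen with earlier results of these data known. The PR1 search term was narrowed after seeing that it also matched NPR1 and similar names. The list takes in genes by description alone, such as PR-4, thaumatin-like proteins and ACCELERATED CELL DEATH 6.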

Additional observations from a re-analysis of the deposited data

Results flagged for a closer look

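In 17 of the 82 tested genes of the salicylate list (20.7%), both male libraries were above both female libraries at week 1 and below both at week 3, as were 6.22% of all genes tested. The opposite held for 1 of the 82 (1.22%), against 4.5% of all genes. The 82 include the 6 described genes, taken as chosen because they were higher in male apices at week 1. For those genes the week 1 side was fixed by the choice, and none could take the opposite course. The rest of the list was also written with week 1 results known. These shares are therefore a description, and no excess over all genes is read from them. The difference between the weeks was not tested for the genes of either course. The values are male minus female on the log2(FPKM + 1) scale at week 1 and then at week 3.

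NIM1-INTERACTING 2, a described gene whose week 1 side was fixed by its choice, went from 3.33 to -0.61. Of the oxygenases related to salicylate breakdown, DMR6-LIKE OXYGENASE 2 (LOC115715781) went from 5.83 to -0.60, a further gene of that description (LOC115714075) from 0.34 to -2.25, DOWNY MILDEW RESISTANCE 6 (LOC115717114) from 2.37 to -0.68 and a 2-oxoglutarate-dependent dioxygenase (LOC115718447) from 0.39 to -0.24. The 1 gene with the opposite course was a further DOWNY MILDEW RESISTANCE 6 gene (LOC115712253), from -0.48 to 0.52. The WRKY70 genes went from 3.93 to -0.84 (LOC115707511) and from 1.61 to -0.79 (LOC115695993), and WRKY46 (LOC115707429) from 0.36 to -1.44.

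Upstream of salicylate, EDS1 (LOC115711424) went from 0.61 to -1.33, its partner PAD4 (LOC115715124) from 0.20 to -0.75, and a phenylalanine ammonia-lyase (LOC115709383) from 0.64 to -0.62. Salicylic acid-binding protein 2 (LOC115714909), an esterase of methyl salicylate in tobacco, went from 0.38 to -0.78. Of the output genes, PR-4 (LOC115720967) went from 1.12 to -1.13, PR-1 (LOC115697808) from 0.52 to -1.04 and thaumatin-like 1 (LOC115717451) from 0.37 to -0.86. A pair of beta-1,3-glucanase genes went from 0.54 to -0.66 (LOC115710104) and from 0.44 to -1.22 (LOC115723486).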

How the results depend on the processing

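Counts of called genes at week 1 depended most on the processing. For male against female week 1, 25 genes were called, against 16 with a pseudocount of 0.1, 5 with no filter, 9 in a fit on the 2 groups, 15 without trend and robust estimation, and 5 to 86 without 1 replicate (5 without female week 1 replicate 2, 10 without female week 1 replicate 1 and 86 without male week 1 replicate 2). The 5 list genes called there became 3, 2 and 3 under the first 3 of these, and 2 to 4 without 1 replicate. Without 1 replicate, the counts against vegetative apices (904, 1172 and 6690 in female week 1, male week 1 and female week 3) became 232 to 510, 658 to 1537 and 4032 to 5260. The list genes called in female week 1 against vegetative apices (10) became 6 with no filter and 2 to 6 without 1 replicate, and in male week 1 (14) 7 to 16. Male week 1 against vegetative apices gave 404 calls in a fit on the 2 groups.

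Of 176 alternative values for the tested differences of the 6 genes, 153 kept direction and side of the threshold, 9 lost a call, 6 gained one and 8 changed sign, none of these 8 from a called value. Of 177 for the untested week 1 differences, 6 changed sign: glutaredoxin-C9 in female week 1 against vegetative apices (0.05 with a pseudocount of 0.1, 0.75 without vegetative replicate 1 and 0.34 without female week 1 replicate 2, against -0.06), thaumatin-like 1b there (0.05 and 0.39 without the same replicates, against -0.02) and SAR DEFICIENT 1 in male week 1 (-0.07 without vegetative replicate 1, against 0.21). Leaving out 1 replicate moved the PR1-like gene between -0.17 and 0.09 (male against female week 3), -0.21 and 0.13 (female week 3 against vegetative) and -0.25 and 0.09 (male week 3 against vegetative), with 0.08, 0.05 and 0.01 among these. Between the sexes at week 3 it moved glutaredoxin-C9 between -0.08 and 0.19 and SAR DEFICIENT 1 between -0.24 and 0.05. The cause was not tested.

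It is not known whether libraries with the same replicate number belong together. Correlations of replicate differences ran from -0.417 (female week 1 with male week 1) to 0.215 (male week 1 with male week 3). The source of the -0.417 was not tested. With the number as a replicate block, male against female week 1 gave 20 calls, the other counts stayed within 1.5 times, and the call gained was NIM1-INTERACTING 2 in male week 3 against vegetative apices (1.02; limma, adjusted p = 0.0493). With the male week 1 numbers crossed, added after seeing the data, the block gave 8.

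Values near 0 rest on few fragments, so the week 3 levels of the PR1-like gene cannot be ranked.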

Other observations

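Relatives of the methyltransferase and of glutaredoxin-C9 showed other patterns. A carboxyl methyltransferase gene on chromosome 6 (LOC115724675), also described as acting on salicylate or benzoate, was at 26.7 and 23.0 FPKM in female week 3 libraries, 3.88 and 2.54 in male week 3, and 0.409 to 1.43 in the other 6. Its order between the sexes at week 3 was thus the opposite of that of LOC115711939, the gene described in the report, and the groups overlapped for neither. Of 22 glutaredoxin genes, glutaredoxin-C6 (LOC115706953), on chromosome X, was higher in both male than in both female libraries at both weeks, at 8.90 and 7.44 against 4.34 and 4.02 FPKM at week 1 and 13.2 and 16.0 against 2.51 and 3.05 at week 3. Calmodulin-binding protein 60 A (LOC115709635), a relative of SAR DEFICIENT 1, was at 43.3 and 40.7 FPKM in female week 3 and 12.1 to 22.7 in the other 8 libraries, lower in male than in female week 3 apices (-0.99; limma, adjusted p = 0.000136). These genes were picked after their values were seen. The methyltransferase LOC115724675 and glutaredoxin-C6 were among the genes tested, but their test results are not given here.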
